A study of Mus musculus with 6 samples.

Results

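This account concerns the 10 genes *Adcyap1*, *Adcyap1r1*, *Sstr1*, *Sstr2*, *Sstr3*, *Sstr4*, *Npy1r*, *Npy2r*, *Npy5r*, and *Mchr1*, which encode the neuropeptide PACAP and its receptor, 4 somatostatin receptors, 3 receptors of neuropeptide Y (NPY), and a receptor of melanin-concentrating hormone (MCH). They were taken by symbol from the 14477 genes measured, and all 10 were in the table. RNA was sequenced from the hippocampus of 6 mice with 1 library each, of which replicates 2, 3, and 6 were Phf21bΔ4/Δ4 and replicates 5, 7, and 8 were Phf21b+/+. *Phf21b* encodes a PHD finger protein of chromatin, and the Δ4 allele carries a deletion in exon 4, made by CRISPR/Cas9 editing with a pair of guides, which puts the transcript out of frame. It is present in the whole body on a C57BL/6J background, so every cell type of the tissue carried it, and the controls were wild-type littermates. No mouse was treated, the labels describe the state as baseline, and the age given for the experiments is 2 to 6 months, with males and females used. The sex, the litter, and the library batch of each of the 6 mice were not given in the sources used here.

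PACAP acts on the receptor encoded by *Adcyap1r1*, which couples to Gs and raises cyclic AMP, and it also acts through Gq and phospholipase C. It shares a peptide family and a pair of receptors, *Vipr1* and *Vipr2*, with vasoactive intestinal peptide. Cyclic AMP activates protein kinase A, which phosphorylates CREB, a transcription factor that binds cyclic AMP response elements in promoters. The receptors of somatostatin, NPY, and MCH couple to Gi/o, lower cyclic AMP, and open GIRK potassium channels. In the hippocampus, somatostatin and NPY are made mainly by GABAergic interneurons, whereas MCH arrives in axons from the hypothalamus.

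Of the 10 genes, *Adcyap1* was lower in the Phf21bΔ4/Δ4 libraries, at 5.48 ± 2.23 CPM against 20.1 ± 2.46 CPM (mean ± SD, n = 3 mice per genotype). *Sstr4* and *Mchr1* were higher by 1.84-fold and 1.90-fold. With each mouse left out in turn, *Adcyap1* passed the test given below in 2 of 6 fits, and *Sstr4* and *Mchr1* in 1 each. In bulk tissue such as this, fewer cells of a type and less RNA per cell cannot be told apart. Summed markers of the neighbouring habenula and thalamus, and those of dentate granule cells, were also lower in every mutant. Those of CA1 and of interneurons were higher in every mutant. The part of any of these in the differences of *Adcyap1*, *Sstr4*, and *Mchr1* was not tested. The other 7 of the 10 genes did not pass the test, although in *Sstr2* and *Sstr3* the genotypes did not overlap. CPM is the read count scaled to the effective size of the library, and the 14477 genes held 20495605 to 24881257 reads in each library. A gene was called at an FDR under 0.1 with a fold change above 1.3, by limma on log2 CPM with Benjamini-Hochberg adjustment over all 14477 genes. By this rule 1.22% of all genes were called, 0.663% as lower and 0.553% as higher, while 3 of the 10 genes were called, 1 lower and 2 higher. The median absolute log2 change was 0.77 over the 10 genes and 0.20 over all genes tested, and the signed medians were 0.09 and -0.019. The study's own list of differentially expressed genes from these libraries holds the same 3 genes. The 10 genes were chosen with earlier results of these data known, so neither the count nor the medians measure enrichment. In 5 of the 10 genes the genotypes did not overlap, 3 with every Phf21bΔ4/Δ4 mouse above and 2 with every one below. Over all genes the genotypes were separate in 31%, with the Phf21bΔ4/Δ4 mice above in 15% and below in 16%. All 10 genes passed the authors' filter on low values within either genotype alone, so none was listed only because 1 genotype had a high level.

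**Figure D1:**
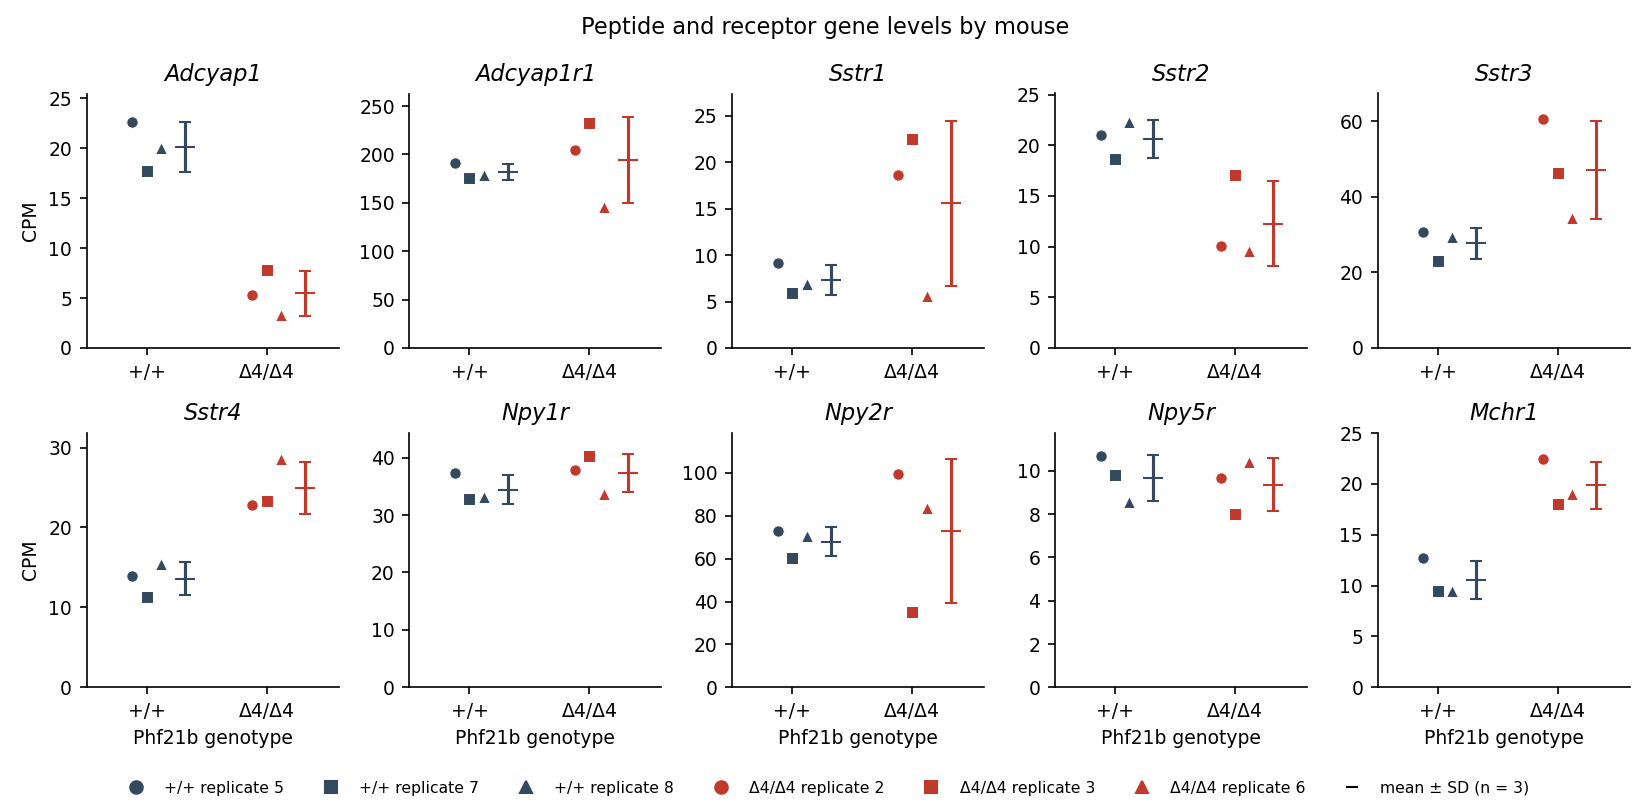
CPM of the 10 genes in each mouse, with Phf21b+/+ on the left of each panel, Phf21bΔ4/Δ4 on the right, a symbol per mouse, and the mean ± SD of 3 mice beside them. *Adcyap1* and *Sstr2* were below, and *Sstr3*, *Sstr4*, and *Mchr1* above, all Phf21b+/+ mice in every Phf21bΔ4/Δ4 mouse.

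The targeted gene was lower in every mutant library. *Phf21b* stood at 2.15, 3.57, and 3.87 CPM in Phf21bΔ4/Δ4 replicates 2, 3, and 6 and at 6.50, 5.23, and 6.47 CPM in Phf21b+/+ replicates 5, 7, and 8. The log2 change was -0.96 (SE 0.26) with an FDR of 0.141, so the difference missed the threshold. The study itself reported reduced *Phf21b* transcript by qRT-PCR and reduced protein by immunoblot and immunostaining, and it describes a knockdown model. Gene-level counts include sequence outside the deletion. The FDR was 0.0497 without Phf21bΔ4/Δ4 replicate 6, in a fit that called 19.5% of all genes, and between 0.190 and 0.356 without any other mouse.

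Upstream sequences are shown for the 3 called genes, for *Sstr2*, and for the motif of *Sst* and *Vip*, because CREB is the transcription factor at the end of the PACAP pathway. They come from RefSeq on GRCm38.p6, in which 9 of the 10 genes had an entry, with 11 windows in all, and *Sstr1* was missing. Each window held the 250 bases before a transcription start, and positions are counted back from that start. Capitals mark the full cyclic AMP response element TGACGTCA, which is its own reverse complement, or its core TGACG, searched on both strands and counted alone only outside a full element. All are printed 5′ to 3′ on the strand of the gene. The stretches lie at chr17:93198767-93199016 (+) for *Adcyap1*, chr2:148395127-148395343 (+) for *Sstr4*, chr15:81235249-81235498 (+) for *Mchr1*, chr11:113619077-113619326 (+) for *Sstr2*, chr16:23890874-23890903 (-) for *Sst*, and chr10:5639128-5639154 (+) for *Vip*. The stretch of *Sstr4* was ended where the GENCODE gene begins.
Adcyap1: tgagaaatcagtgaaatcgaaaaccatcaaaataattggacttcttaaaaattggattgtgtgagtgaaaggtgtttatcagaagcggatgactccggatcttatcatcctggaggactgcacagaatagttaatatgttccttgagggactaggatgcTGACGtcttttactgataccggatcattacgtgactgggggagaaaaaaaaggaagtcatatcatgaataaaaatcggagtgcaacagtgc
Sstr4: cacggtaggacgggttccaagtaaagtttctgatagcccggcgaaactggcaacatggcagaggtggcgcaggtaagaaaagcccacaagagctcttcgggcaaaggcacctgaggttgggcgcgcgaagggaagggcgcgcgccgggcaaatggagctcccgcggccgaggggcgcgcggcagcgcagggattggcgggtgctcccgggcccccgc
Mchr1: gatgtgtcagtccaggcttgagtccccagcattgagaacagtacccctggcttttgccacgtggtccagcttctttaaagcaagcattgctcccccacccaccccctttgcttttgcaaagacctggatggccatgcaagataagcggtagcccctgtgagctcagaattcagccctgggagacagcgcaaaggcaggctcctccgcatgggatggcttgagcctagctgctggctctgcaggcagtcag
Sstr2: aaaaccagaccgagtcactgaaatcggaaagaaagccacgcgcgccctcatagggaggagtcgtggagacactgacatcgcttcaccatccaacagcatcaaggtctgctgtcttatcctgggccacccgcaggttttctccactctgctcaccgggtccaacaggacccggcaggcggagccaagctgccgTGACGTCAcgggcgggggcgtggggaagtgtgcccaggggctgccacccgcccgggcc
Sst: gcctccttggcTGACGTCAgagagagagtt
Vip: gatcactactgTGACGtctttcgggga

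Among the 10 genes, *Sstr2* held the full element, 58 bases before its start, as did the ligand gene *Sst*, 48 bases before its start. *Adcyap1* held the core 91 bases before its start, and in the window of its second start the same core lay 242 bases upstream. *Sstr3* held it 9 bases upstream, and the ligand genes *Vip* and *Cort* held it 79 and 18 bases upstream. The windows of *Sstr4* and *Mchr1*, the called receptors, held neither form. Of all 32851 windows in the table, 1.55% held the full element and 17.8% held the core or the full element, so a core is common. The *Sstr4* window held 28 CG pairs and that of *Sstr2* 18, against 7 in *Adcyap1*, 4 in *Mchr1*, and a median of 6 over all windows. A match of letters is a description of the sequence, and binding was not measured.

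*Adcyap1*, the gene of the PACAP precursor, lies on chr17:93199017-93206537 (+) and has up to 5 exons per transcript in the GENCODE annotation of GRCm38. Its level was 5.36, 7.76, and 3.31 CPM in Phf21bΔ4/Δ4 replicates 2, 3, and 6. It was 22.6, 17.7, and 20.05 CPM in Phf21b+/+ replicates 5, 7, and 8. Every mutant mouse was below every wild-type mouse, and the highest mutant, replicate 3, remained well under the lowest wild type. These values rest on 76 to 163 reads per mutant library and 420 to 477 reads per wild-type library. Counting error was 11.5% at the lowest count, that of Phf21bΔ4/Δ4 replicate 6. The log2 change was -1.96 (SE 0.30, 95% interval -2.67 to -1.24), a 3.88-fold lower level, at an FDR of 0.0688. It ranked 59th by size among the 96 genes called lower. The FDR was 0.0728 without Phf21bΔ4/Δ4 replicate 3 and 0.0146 without replicate 6, but 0.232 without replicate 2 and 0.121, 0.242, and 0.268 without Phf21b+/+ replicates 5, 7, and 8. The log2 change stayed between -2.25 and -1.63 in these 6 fits.

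*Adcyap1r1*, which encodes the PACAP receptor, showed no called change. It lies on chr6:55451978-55501451 (+) and was measured at 204, 233, and 145 CPM in Phf21bΔ4/Δ4 replicates 2, 3, and 6, and at 192, 175, and 179 CPM in Phf21b+/+ replicates 5, 7, and 8. Mutant replicate 6 was the lowest and replicate 3 the highest of the 6 mice, so the mutants enclosed the wild types. The log2 change was 0.07 (SE 0.17, 95% interval -0.34 to 0.48) at an FDR of 0.812. The log2 ratio of *Adcyap1* to *Adcyap1r1* within a mouse does not depend on the scaling of its library. It was -5.25, -4.91, and -5.46 in Phf21bΔ4/Δ4 replicates 2, 3, and 6 and -3.08, -3.31, and -3.15 in Phf21b+/+ replicates 5, 7, and 8, a difference of -2.03. The ligand was thus lower relative to its receptor in all 3 mutants. This is not independent of the difference in *Adcyap1* alone, since the mean level of *Adcyap1r1* differed little. The exact 2-sided permutation p was 0.1, the smallest that 3 mice against 3 allow, and 0.367 after adjustment over the 11 ratios computed.

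The other peptide of the family went the opposite way in level. *Vip*, the gene of vasoactive intestinal peptide, was at 22.8, 32.3, and 17.1 CPM in Phf21bΔ4/Δ4 replicates 2, 3, and 6 and at 13.3, 6.79, and 10.1 CPM in Phf21b+/+ replicates 5, 7, and 8. The mice did not overlap, but the log2 change of 1.26 (SE 0.31) did not pass, at an FDR of 0.134. The FDR of *Vip* was 0.0394 without Phf21bΔ4/Δ4 replicate 6, where 19.5% of all genes were called, and 0.127 to 0.356 without any other mouse. *Vipr1*, a receptor shared by both peptides, was at 16.5 ± 2.11 and 12.8 ± 2.99 CPM, with a log2 change of 0.39 and an FDR of 0.258. *Vipr2*, the other shared receptor, rested on 16 to 61 reads and overlapped between genotypes, with a log2 change of -0.21 that turned positive under quantile normalization, under library weights, and without Phf21b+/+ replicate 5.

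**Figure D2:**
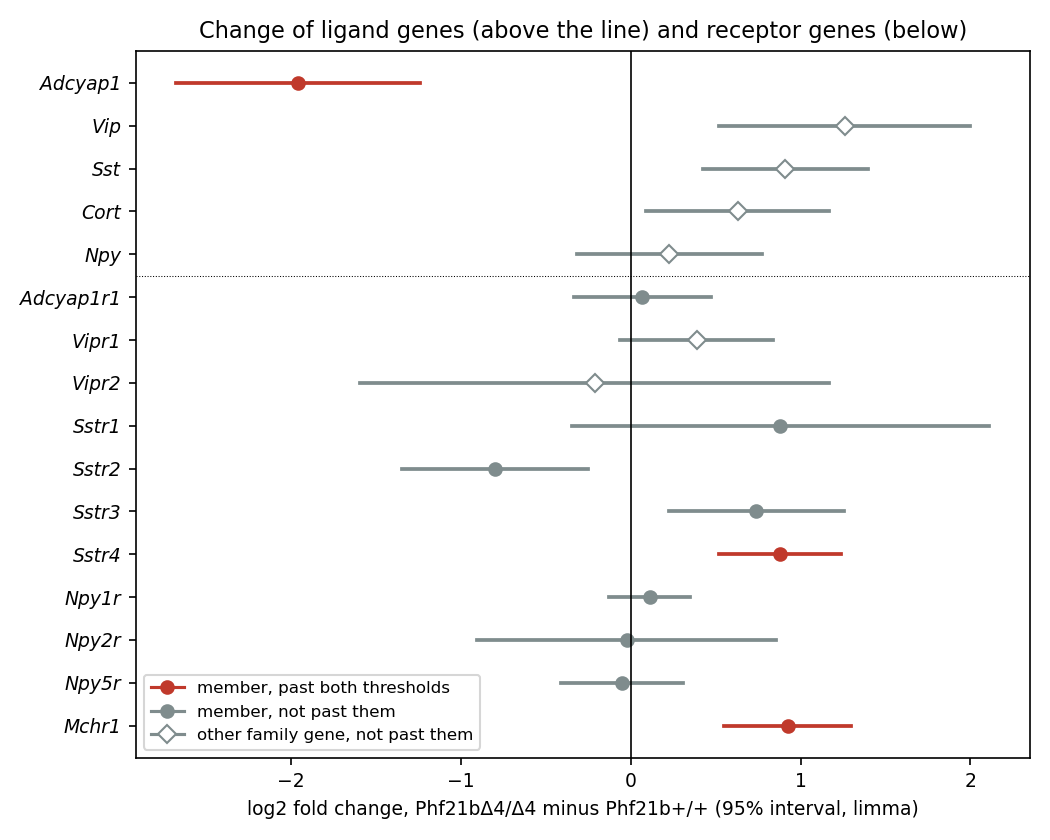
Log2 fold change of 5 ligand genes (above the dotted line) and 11 receptor genes (below), as Phf21bΔ4/Δ4 minus Phf21b+/+, with 95% intervals from limma, filled circles for the 10 genes described, open diamonds for the other genes of their families, and red for genes past both thresholds. The intervals of *Adcyap1*, *Sstr2*, *Sstr3*, *Sstr4*, *Mchr1*, *Vip*, *Sst*, and *Cort* leave out 0, and 3 of these genes were called.

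The 4 somatostatin receptors differed among themselves in direction. *Sstr4*, which encodes a Gi/o-coupled receptor found on hippocampal pyramidal neurons, has a single exon on chr2:148395344-148396767 (+). It was at 22.8, 23.3, and 28.6 CPM in Phf21bΔ4/Δ4 replicates 2, 3, and 6 and at 13.9, 11.4, and 15.5 CPM in Phf21b+/+ replicates 5, 7, and 8. All mutants lay above all wild types, with a spread of similar size in each genotype. The log2 change was 0.88 (SE 0.15, 95% interval 0.52 to 1.24) at an FDR of 0.0838, from 269 to 658 reads per library. The call held without Phf21bΔ4/Δ4 replicate 6 (FDR 0.0348) and was lost without replicate 2 (0.233), replicate 3 (0.174), or Phf21b+/+ replicate 5 (0.125), 7 (0.242), or 8 (0.225), with log2 changes between 0.76 and 0.98.

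*Sstr2*, a receptor that binds somatostatin and cortistatin with high affinity, lies on chr11:113619342-113626028 (+). Its level was 10.04, 17.1, and 9.61 CPM in Phf21bΔ4/Δ4 replicates 2, 3, and 6 and 20.97, 18.6, and 22.3 CPM in Phf21b+/+ replicates 5, 7, and 8. Every mutant was below every wild type, replicate 3 by a small margin. The log2 change of -0.80 (SE 0.23, 95% interval -1.35 to -0.25) had an FDR of 0.149 and was not called. Without Phf21bΔ4/Δ4 replicate 3 the log2 change was -1.07 at an FDR of 0.0930, in a fit that called 0.311% of all genes. The locus overlaps *Slc39a11* on the opposite strand, but 0 bases of exon are shared.

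*Sstr3*, whose product is known for its place on neuronal primary cilia, was at 60.5, 46.3, and 34.5 CPM in Phf21bΔ4/Δ4 replicates 2, 3, and 6. It was at 30.7, 23.0, and 29.3 CPM in Phf21b+/+ replicates 5, 7, and 8. All mutants were above the wild types, replicate 6 only narrowly, and the log2 change of 0.74 (SE 0.22, 95% interval 0.22 to 1.26) had an FDR of 0.150. *Sstr1* varied most among the mutants in this family, with 18.6, 22.5, and 5.57 CPM in Phf21bΔ4/Δ4 replicates 2, 3, and 6 against 9.11, 5.91, and 6.92 CPM in Phf21b+/+ replicates 5, 7, and 8. Mutant replicate 6 was the lowest of the 6 mice, whereas the other 2 mutants were the highest. The log2 change was 0.88 (SE 0.52, 95% interval -0.35 to 2.11) with an FDR of 0.321. Without replicate 6 it was 1.51 at an FDR of 0.0192, and *Sstr3* reached 0.95 at an FDR of 0.0307, but in that fit 19.5% of all genes were called. *Sstr3* and *Mchr1* lie on chromosome 15 with *Phf21b*, 6.24 and 3.55 Mb from it. *Sstr3* spans chr15:78537008-78544685 (-) and *Sstr1* chr12:58211772-58214444 (+).

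Because the receptors have transcripts of different length, their levels were compared as CPM per kb of exon. Summed over the 4 genes, the level was 41.7 ± 5.67 CPM per kb in Phf21bΔ4/Δ4 and 29.1 ± 3.70 CPM per kb in Phf21b+/+ (n = 3 each, exact permutation p = 0.1, the smallest possible). *Sstr2* made up 10.7%, 17.3%, and 12.7% of that sum in Phf21bΔ4/Δ4 replicates 2, 3, and 6 and 31.5%, 34.9%, and 33.1% in Phf21b+/+ replicates 5, 7, and 8. The *Sstr2* share was lower in every mutant. The *Sstr4* share was 36.5%, 35.5%, and 57.0% against 31.4%, 32.04%, and 34.5%, above the wild types in each mutant but by about 1 point in replicate 3. Without Phf21bΔ4/Δ4 replicate 6 the genotypes differed in the *Sstr4* share by 3.37 points instead of 10.4. For both shares the exact permutation p was 0.1. The sum and the shares are not independent of the single genes, of which *Sstr2* was below and *Sstr3* and *Sstr4* above the wild types in every mutant. The shares of *Sstr1* (17.5 ± 8.58% and 12.2 ± 1.86%) and *Sstr3* (26.0 ± 5.23% and 21.9 ± 0.760%) overlapped between genotypes.

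**Figure D3:**
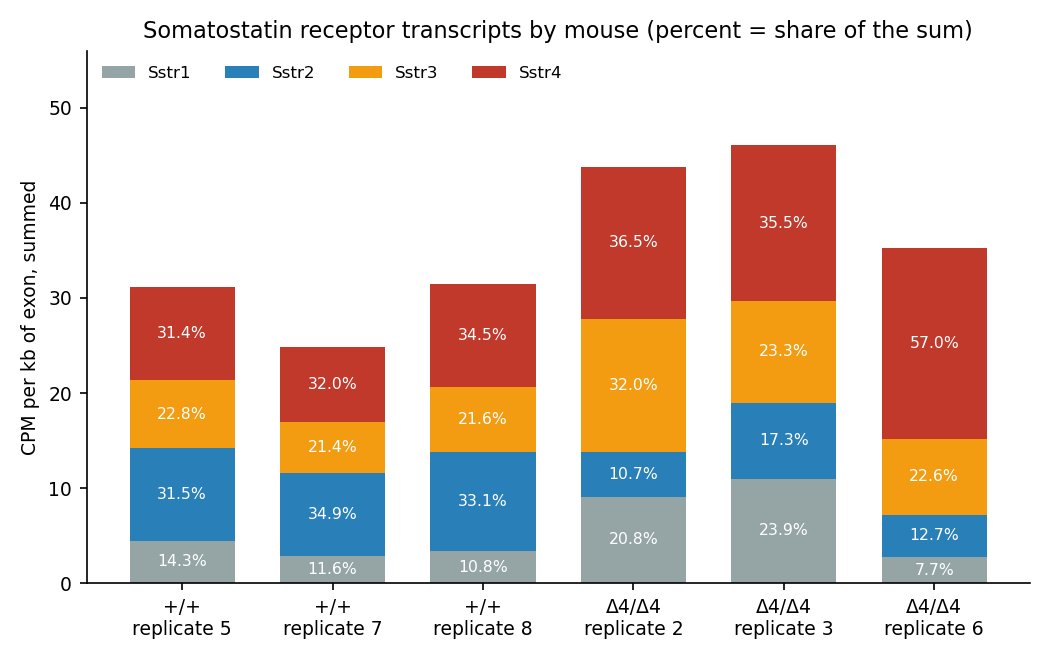
Stacked bars of the CPM per kb of exon of *Sstr1*, *Sstr2*, *Sstr3*, and *Sstr4* in each mouse, with the percent of the sum printed in each segment. *Sstr2* filled between 10.7% and 17.3% of the bar in the 3 Phf21bΔ4/Δ4 mice and between 31.5% and 34.9% in the 3 Phf21b+/+ mice.

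Ratios within a mouse were compared in the same way. The log2 ratio of *Sstr4* to *Sstr2* was 1.18, 0.45, and 1.57 in Phf21bΔ4/Δ4 replicates 2, 3, and 6 and -0.59, -0.71, and -0.53 in Phf21b+/+ replicates 5, 7, and 8. *Sstr4* reads outnumbered *Sstr2* reads in every mutant and fell short of them in every wild type. The log2 ratio of *Sstr2* to *Sstr3* was -1.96 ± 0.585 in Phf21bΔ4/Δ4 and -0.42 ± 0.121 in Phf21b+/+, also with no overlap. Both separations follow from the single genes, since *Sstr2* was below and *Sstr4* and *Sstr3* above the wild types in every mutant. The ratios of *Sstr4* to *Sstr3* and of *Sstr4* to *Sstr1* overlapped, with differences of 0.14 and -0.0031. Each exact permutation p of the separate ratios was 0.1 and the adjusted value 0.367. Of the 11 ratios, 3 were separate between genotypes and 8 overlapped. Over all genes taken singly the genotypes were separate in 31%, and no such share was computed for ratios.

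*Sst*, which encodes somatostatin, was at 140, 170, and 98.3 CPM in Phf21bΔ4/Δ4 replicates 2, 3, and 6 and at 78.5, 61.4, and 72.5 CPM in Phf21b+/+ replicates 5, 7, and 8. All mutants lay above all wild types, and the log2 change of 0.91 (SE 0.20) had an FDR of 0.132, so it was not called, and the FDR was 0.0146 without Phf21bΔ4/Δ4 replicate 6, where 19.5% of all genes were called, and 0.139 to 0.356 without any other mouse. *Sst* and *Sstr4* differed by a similar amount, and the log2 ratio of *Sstr4* to *Sst* was -2.42 ± 0.568 in mutants and -2.39 ± 0.140 in wild types. *Cort*, the gene of cortistatin, which binds the same receptors, was at 6.24 ± 0.804 and 4.10 ± 1.09 CPM, with a log2 change of 0.63, overlapping mice, and an FDR of 0.175.

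The NPY receptors showed no called difference. *Npy1r*, the main postsynaptic receptor, was at 37.8, 40.3, and 33.7 CPM in Phf21bΔ4/Δ4 replicates 2, 3, and 6 and at 37.3, 32.8, and 33.2 CPM in Phf21b+/+ replicates 5, 7, and 8. The genotypes overlapped, and the log2 change of 0.11 had a 95% interval of -0.13 to 0.35, so a change of more than 0.35 in either direction lay outside it. *Npy5r*, which lies 9063 bases from *Npy1r* on the opposite strand of chromosome 8, was at 9.66, 8.002, and 10.4 CPM in mutants and 10.7, 9.79, and 8.54 CPM in wild types. Its log2 change was -0.05 (95% interval -0.41 to 0.31), and its sign turned with 4 of the alternatives.

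*Npy2r*, a presynaptic receptor that limits transmitter release, had the widest spread of the 3. It was at 99.4, 35.2, and 83.8 CPM in Phf21bΔ4/Δ4 replicates 2, 3, and 6 and at 72.8, 60.1, and 70.6 CPM in Phf21b+/+ replicates 5, 7, and 8. Mutant replicate 3 was the lowest of all 6 mice and the other mutants the highest. The mean difference was therefore near 0 (log2 change -0.02, 95% interval -0.90 to 0.85), and without replicate 3 it was 0.43 at an FDR of 0.268. The same mutant stood apart in the family sum per kb, where *Npy2r* made up 41.3% in replicate 3 and 66.6% and 64.2% in replicates 2 and 6, against 57.1% to 61.7% in the wild types. The ligand gene *Npy* was at 35.8, 31.4, and 54.5 CPM in mutants and 40.2, 33.8, and 28.0 CPM in wild types, with a log2 change of 0.23 and an FDR of 0.546. *Npy1r* spans chr8:66697192-66706792 (+), *Npy5r* chr8:66679965-66688128 (-), and *Npy2r* chr3:82538383-82548084 (-).

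*Mchr1*, the MCH receptor, is another Gi/o-coupled receptor known from primary cilia and lies on chr15:81235499-81238964 (+). Its level was 22.5, 18.1, and 19.0 CPM in Phf21bΔ4/Δ4 replicates 2, 3, and 6 and 12.7, 9.45, and 9.44 CPM in Phf21b+/+ replicates 5, 7, and 8. The lowest mutant was clearly above the highest wild type. The log2 change was 0.92 (SE 0.16, 95% interval 0.55 to 1.297) at an FDR of 0.0810, from 210 to 533 reads per library. *Mchr1* and *Sstr4* ranked 23rd and 25th by size among the 80 genes called higher, and their ratio within a mouse did not separate the genotypes (log2 -0.33 ± 0.288 and -0.37 ± 0.303). The call of *Mchr1* held without Phf21bΔ4/Δ4 replicate 6 (FDR 0.0343) and was lost without replicate 2 (0.271), replicate 3 (0.151), or Phf21b+/+ replicate 5 (0.109), 7 (0.255), or 8 (0.307), with log2 changes between 0.83 and 1.06. *Pmch*, which encodes MCH, was not among the genes analysed here, nor were *Pyy*, *Ppy*, *Sstr5*, *Npy4r*, and *Npy6r*.

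The 10 genes were also ordered by level, as CPM per kb of exon. In Phf21b+/+ the order from the top was *Adcyap1r1* (27.5 ± 1.301), *Npy2r* (20.05 ± 2.004), *Npy1r* (9.97 ± 0.728), *Sstr2* (9.63 ± 0.880), *Sstr4* (9.53 ± 1.46), *Sstr3* (6.40 ± 0.940), *Adcyap1* (5.33 ± 0.650), *Mchr1* (4.81 ± 0.850), *Npy5r* (3.78 ± 0.420), and *Sstr1* (3.57 ± 0.80003). Among neighbours in that order, *Npy1r* and *Sstr2*, *Sstr2* and *Sstr4*, *Sstr3* and *Adcyap1*, *Adcyap1* and *Mchr1*, and *Npy5r* and *Sstr1* overlapped between mice. In Phf21bΔ4/Δ4, *Adcyap1r1* (29.4 ± 6.75) and *Npy2r* (21.5 ± 9.90) had the highest means, *Sstr4* came next at 17.5 ± 2.27, and *Adcyap1* was the lowest at 1.45 ± 0.591, below *Npy5r* (3.66 ± 0.480) with no overlap. *Sstr2* had the fourth mean in wild types and the eighth in mutants, at 5.72 ± 1.96 CPM per kb. The mutants kept fewer neighbours apart, since *Adcyap1r1* and *Npy2r*, *Npy2r* and *Sstr4*, *Sstr3* and *Npy1r*, *Npy1r* and *Mchr1*, *Mchr1* and *Sstr1*, and *Sstr1* and *Sstr2* overlapped between mice. The spread within a genotype differed by gene. Among mutants the coefficient of variation was 57.0% for *Sstr1*, 46.0% for *Npy2r*, and 40.8% for *Adcyap1*, against 8.92% for *Npy1r*, and among wild types it ran from 4.73% (*Adcyap1r1*) to 22.4% (*Sstr1*).

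Signalling genes downstream of these receptors were counted in lists, while 1.22% of all genes were called. The lists are short, so at that share 0 called genes says little about a pathway. In a list of 22 genes of the Gs and cyclic AMP pathway, 0 were called in limma, with a median log2 change of 0.17. The smallest p-values there belonged to *Gnal*, a Gs-like alpha subunit, at 140 ± 12.8 CPM in mutants and 179 ± 8.56 CPM in wild types (log2 change -0.36, FDR 0.134), and to *Adcy5*, an adenylyl cyclase, at 175 ± 40.4 and 110 ± 5.14 CPM (0.65, FDR 0.142). In the Gq and phospholipase C list, 2 of 13 genes were called, both higher, with a median log2 change of 0.28. *Prkcb*, a calcium-dependent protein kinase C, was at 735, 849, and 771 CPM in Phf21bΔ4/Δ4 replicates 2, 3, and 6 and at 477, 398, and 528 CPM in Phf21b+/+ replicates 5, 7, and 8 (log2 change 0.75, SE 0.13, FDR 0.0810). Every mutant was above every wild type, and *Prkcb* was not called without Phf21bΔ4/Δ4 replicate 2 or 3 or any of the wild-type mice, with FDRs of up to 0.242.

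In the Gi/o and GIRK list, 0 of 14 genes were called, with a median log2 change of 0.14. *Gnaz* (0.41, FDR 0.141) and *Gnai1* (0.43, FDR 0.149), alpha subunits of the Gi/o family, had the smallest p-values, and in both genes the mutants lay above the wild types. Of 10 genes that process or package peptide precursors, 0 were called, with a median log2 change of 0.08. The smallest p-values there were those of *Scg5*, a chaperone of a prohormone convertase (0.24, FDR 0.142), and *Chga*, a granin of dense-core vesicles (0.44, FDR 0.213). With no adjustment, a p under 0.05 was found for 23.6% of all genes. The count was 7 of 22 in the Gs list, 8 of 13 in the Gq list, 7 of 14 in the Gi/o list, 1 of 10 in the processing list, and 4 of the 5 ligand genes, *Adcyap1* included. Limma voom on the recovered reads called 1 gene of the Gq list and 1 ligand gene, and 0 of the Gs, Gi/o, and processing lists.

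The profiles most like those of the called genes over the 6 mice were found by the root mean square (RMS) difference of log2 CPM after each gene was centred on its mean. Nearest to *Adcyap1* were *Epha8* (0.20), *Gpr179* (0.25), and *Scn9a* (0.28). Nearest to *Sstr4* were *Tmem200a* (0.0608), *A330084C13Rik* (0.0932), and *Pcdhga2* (0.118), the last a gene of the protocadherin gamma cluster, whose members share exons, so its reads are uncertain. *P2ry14*, *Grpr*, and *C130026L21Rik* were nearest to *Mchr1*, each with a difference of 0.13 to 0.14. Some of these genes were at low levels, so their profiles rest on few reads. In mutants and wild types, *P2ry14* was at 1.47 and 0.903 CPM, *Grpr* at 1.85 and 0.885 CPM, and *Gpr179* at 0.401 and 1.59 CPM. None of the genes nearest to *Mchr1* was called (FDR 0.133 to 0.206), nor were *Epha8* and *A330084C13Rik* (each 0.133), while the others named were. These are the smallest differences among all listed genes, over 6 mice that also define the genotypes.

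The hippocampal identity of the libraries and their content of neighbouring tissue were checked with 11 lists of marker genes. Markers of CA1, dentate granule cells, and interneurons were present in all 6 mice. The summed CPM of 16 medial habenula markers was 107 to 206 in Phf21bΔ4/Δ4 and 354 to 473 in Phf21b+/+. Of the 16, 13 were called lower, against 0.663% of all genes. That count is not independent, since the marker lists were chosen with earlier results of these data known. Most of these markers are among the genes that the study itself reported as lower in these libraries. Their defining genes *Pou4f1*, *Irx2*, *Chat*, and *Slc18a3* had at most 2 reads in any mutant library but 33 to 458 reads in the wild types, while *Nr4a2*, the most abundant gene of the list, was at 39.9, 137, and 32.4 CPM in Phf21bΔ4/Δ4 replicates 2, 3, and 6 and at 39.2 ± 8.26 CPM in wild types (log2 change 0.54, FDR 0.530) and *Lrrc55* fell by 2.40 on the log2 scale. Thalamus markers summed to 240 to 357 and 537 to 853 CPM, with 2 of 11 called lower, and *Zic1* was at 2.95 to 24.9 CPM against 127 to 200 CPM, while *Rora* overlapped. *Adcyap1* moved in the same direction as these sums. The part of habenular or thalamic tissue in the *Adcyap1* difference was not tested.

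The CA1 list summed to 1679 to 1785 CPM in mutants and 793 to 1067 CPM in wild types, with 3 of 12 genes called higher. Of these, *Mpped1* rose by 1.42 on the log2 scale, while *Zbtb20* in the list overlapped. *Sstr4*, *Mchr1*, and *Prkcb* moved in that direction too. Over all genes, 0.553% were called higher and 0.663% lower. The counts of this and the following lists are not independent either, and the 3 CA1 genes are among those the study itself reported as higher. Interneuron markers, a list that itself holds *Sst*, *Npy*, and *Vip*, summed to 1769 to 2368 CPM and 1352 to 1547 CPM, with 1 of 16 called higher, and *Gad1*, among the most abundant of them, had a log2 change of 0.56 that was not called. The dentate list summed to 531, 490, and 1129 CPM in Phf21bΔ4/Δ4 replicates 2, 3, and 6 and to 1291 to 1431 CPM in Phf21b+/+. Among the mutants, replicate 6 thus lay closest to the wild types, and without this mouse 19.5% of all genes were called. In the dentate list 1 of 12 was called lower, and *Rfx3* and *Dock10* led it by level. *Adcyap1* and *Sstr2* were also lower in every mutant. CA2 and CA3 markers (273 to 558 and 488 to 507 CPM, led by *Rgs14* and *Bok*) had 0 of 12 called and were lowest in Phf21bΔ4/Δ4 replicate 3, the mouse with the lowest *Npy2r*. The lists for cortex (*Tle4*, *Rorb*), oligodendrocytes (*Mbp*), and microglia (*Csf1r*) overlapped between genotypes with 0 genes called, and that for astrocytes (*Slc1a2*, *Aldoc*) overlapped with 1 of 8 called lower. Choroid plexus markers stood apart in Phf21b+/+ replicate 7, at 15683 CPM, and in Phf21b+/+ replicate 8, at 980 CPM, against 23.8 to 82.4 CPM in the other 4 mice, in replicate 7 mostly as *Ttr* (14542 CPM), with *Kl* next, and 1 of 8 was called lower. Without replicate 7 the log2 changes of *Adcyap1*, *Sstr4*, and *Mchr1* were -2.04, 0.76, and 0.85 with FDRs of 0.242, 0.242, and 0.255. The part of any of these markers in the differences of the peptide and receptor genes was not tested.

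**Figure D4:**
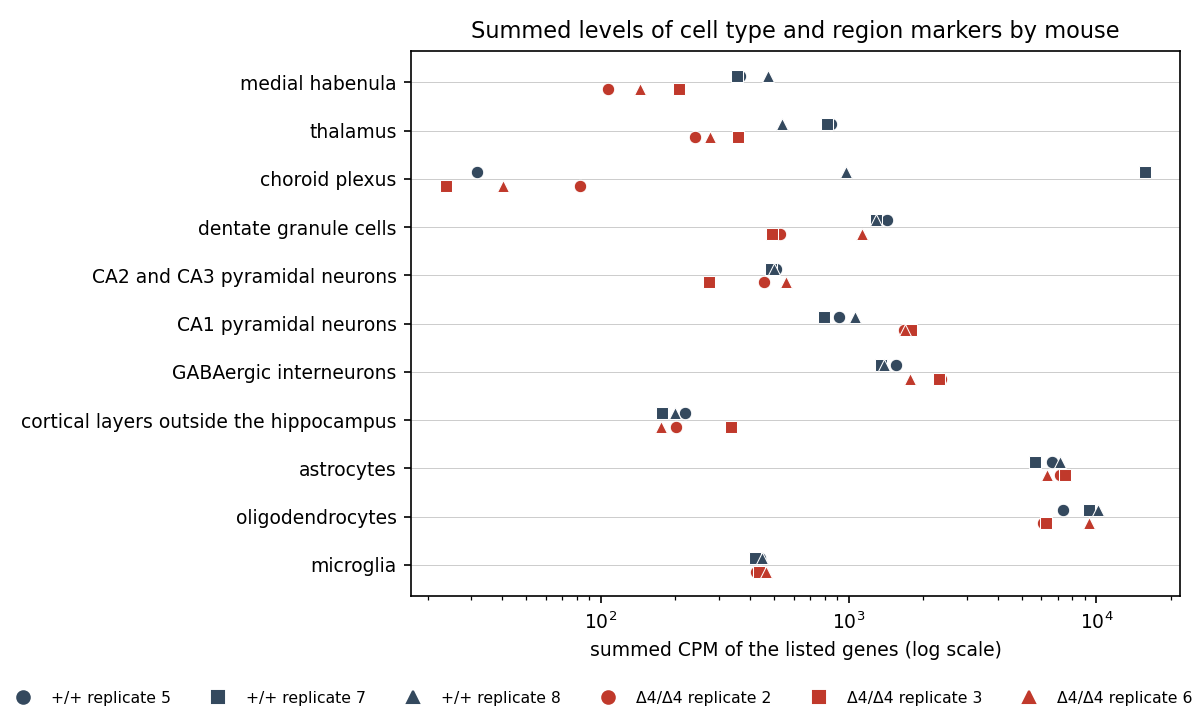
Summed CPM of 11 marker lists in each mouse on a log axis, with Phf21b+/+ mice in the upper row of each list and Phf21bΔ4/Δ4 mice in the lower row. The medial habenula, thalamus, dentate, CA1, and interneuron sums were separate between genotypes, and choroid plexus markers reached 15683 CPM in Phf21b+/+ replicate 7.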

How the data were processed

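Hippocampal RNA of 3 Phf21bΔ4/Δ4 and 3 Phf21b+/+ mice was sequenced from rRNA-depleted libraries. The authors trimmed reads with Trimmomatic 0.39, mapped them to GRCm38 with STAR 2.7.3a, counted them with featureCounts (Subread 1.6.4), dropped genes that did not reach a CPM of 1 in 2 or more samples, scaled to effective library size with edgeR, and deposited log2 CPM of 14477 genes. Values were grouped by sample label, and reads were recovered from the log2 steps (100% whole within 0.1). Depth was 20495605 to 24881257 reads per mouse, and 3 reads correspond to 0.127 to 0.143 CPM.

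The log2 values were compared with limma 3.58.1 in R 4.3.3 (prior variance following the mean, no covariate, Benjamini-Hochberg over all genes). The test was also run on simulated counts with the same dispersion for all genes, which does not cover the uneven spread between these mice. The thresholds are those of the study's methods, where the authors tested counts with edgeR. Exact permutation tests used all 20 divisions of the 6 mice. Exon lengths and positions came from GENCODE M21, in which 98.6% of symbols were found, and upstream sequences from RefSeq. The alternatives covered the prior, library weights, filters, offsets, scaling, GC content, voom, thresholds, and each mouse left out. Named were the 10 genes, *Phf21b*, the other ligands and receptors, the called genes of each pathway list or else the 2 with the smallest p, the 3 nearest profiles per called gene, and of each marker list the 2 most abundant genes and those at 3 reads or fewer. Some genes that fall under this rule are not reported here. *Slc39a11* was named after its overlap was seen. The genes and lists were chosen with earlier results of these data known. Figures were made with Python 3.11.15 and matplotlib 3.10.9.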

Additional observations from a re-analysis of the deposited data

How the results depend on the processing

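No paired analysis was possible because the sources used here do not say which of the 6 mice shared a litter. The count of called genes among the 10 was 3 under 9 of the 12 alternatives that kept all mice. It was 0 with the same prior variance for all genes and 0 at an FDR under 0.05, each of which also made fewer calls over all genes (75 and 25, against 176), and 6 with library weights, which called 3549 genes (24.5%). It ranged from 0 to 5 when each mouse was left out, with 9 to 2830 genes called in all. When genes under a mean log2 CPM of 1 were dropped, 101 genes were called. The 2 called genes of the pathway lists became 0 with the same prior variance and at an FDR under 0.05, 1 with the expression filter, with quantile normalization, and with voom, 23 with library weights, and 0 to 18 without a mouse. *Adcyap1*, *Sstr4*, *Mchr1*, *Sstr1*, *Sstr2*, *Sstr3*, and *Npy1r* kept their direction in every fit run. The log2 change of *Phf21b* was -1.32 with library weights and -1.12 to -0.70 without a mouse.

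Directions that turned belonged to small differences, and the cause was not tested. The log2 change of *Adcyap1r1* was -0.078 after quantile normalization and -0.075 to 0.26 without a mouse. That of *Npy2r* was 0.20 with library weights, 0.025 after centring, 0.00068 after GC correction, and -0.32 to 0.43 without a mouse. That of *Npy5r* was 0.069 with weights, 0.11 after quantile normalization, and -0.14 to 0.057 without a mouse. For *Vipr2* the values were 0.12, 0.42, and -0.59 to 0.46, and for *Npy* the range was -0.0074 to 0.39. Without a mouse, the difference in log2 ratio ranged from -0.73 to 0.42 for *Sstr4* to *Sstr1* (0.015 with log2(CPM + 1)), from -0.17 to 0.40 for *Sstr4* to *Sstr3*, from -0.38 to 0.42 for *Npy1r* to *Npy2r*, from -0.0031 to 0.31 for *Npy1r* to *Npy5r*, from -0.24 to 0.38 for *Npy2r* to *Npy5r*, from -0.13 to 0.18 for *Mchr1* to *Sstr4*, from -0.34 to 0.19 for *Npy1r* to *Npy*, and from -0.35 to 0.19 for *Sstr4* to *Sst*. The ratios of *Adcyap1* to *Adcyap1r1* (-2.18 to -1.90), *Sstr4* to *Sstr2* (1.43 to 1.99), and *Sstr2* to *Sstr3* (-1.80 to -1.22) kept their sign. With 3 mice per genotype, intervals were wide for genes whose mutants differed, such as *Sstr1* and *Npy2r*, and depth was not limiting for the 10 genes, which had at least 76 reads in every library.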
